A study of Mus musculus with 8 samples.

Results

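Homologous recombination mends broken or stalled DNA with the sister copy as template, the Fanconi pathway removes crosslinks that block replication forks, and checkpoint kinases hold the cell cycle while repair goes on. The members described here are 36 genes of these 3 systems, chosen by gene symbol with earlier results of these data known. All 36 are rows of a table of 21524 genes. RNA had been sequenced from regulatory T cells (Tregs, suppressive CD4 T cells defined by the factor Foxp3) sorted from mouse spleen. The labels name 2 treatments: IL-2, in libraries 41 to 44, and control, in libraries 45 to 48. The series' text tells of a modified IL-2 and CTLA-4 Ig in mice that received mismatched hearts or kidneys. Whether that modified IL-2, CTLA-4 Ig or a graft belongs to either of these groups is not in the labels, nor are strain, age, sex, dose or what the controls were given. No label ties a library to an animal, so the p-values speak only of the spread among libraries, which may be technical.

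The pathway in brief, as background: the kinases ATM and ATR sense breaks and single-stranded DNA and signal through CHK2 and CHK1. Nucleases trim broken ends, BRCA1 with BARD1 and then PALB2 with BRCA2 prepare the strand for pairing with its template, and RAD54 enzymes and helicases carry the exchange through. The Fanconi core complex attaches ubiquitin to FANCD2 and FANCI at a blocked fork, after which recombination proteins complete the repair. Many of these genes are transcribed mostly in cells that are copying their DNA, and T cells divide after IL-2 receptor signals.

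Values below are normalised reads, recovered from the deposited variance-stabilised table as described under processing, and a value of 0 means the lowest value of that table. Estimated depth was 4953466 to 6399125 reads per IL-2 library and 4970652 to 6147506 per control library. The 6 Treg markers summed to 36976 to 42211 with IL-2 and 28909 to 30081 in controls. Of these, Il2ra, the IL-2 receptor alpha chain gene, was higher with IL-2 (18107 ± 1600 against 6935 ± 781, limma adjusted p = 1.17e-06) and Cd4 lower (2523 ± 354 against 4136 ± 300, 3.38e-04). Foxp3, Ctla4, Ikzf2 and Cd3e did not pass, and Foxp3 had 1123 reads or more in every library. The 14 cycling markers summed to 14675 to 24803 with IL-2 and 7676 to 9665 in controls. Library 44 had 13044 reads of the proliferation gene Mki67 against 5332, 5937 and 6142 in the other IL-2 libraries and 2810 to 4271 in controls, so Mki67 alone made up much of its sum. It was the highest IL-2 library for 8 of the 14 markers, and for Mcm3 and Mcm4, replication helicase genes, it was the lowest. The 7 B cell markers summed to 106 to 212 with IL-2, mostly Cd74 and Cd79b, and to 398 to 503 in controls, mostly Cd74. In library 44, Cd79b (93.1 reads) exceeded Cd74 (47.6). Cd74 was lower with IL-2 (88.5 ± 40.1 against 396 ± 35.4, limma adjusted p = 1.20e-04). Cd79b, the only other one tested, stood at 60.1 ± 31.1 and 42.0 ± 14.1 (adjusted p = 0.637), and Ms4a1 was at 0 in all but control library 45. H2-Aa, under the filter, had 0 to 6.2 reads with IL-2 and 6.9 to 28.2 in controls. The 9 myeloid markers summed to 803 to 1034 and 1614 to 1887, mostly Ctss, with Cd14 at 0 throughout. Ctss was lower with IL-2 (847 ± 121 against 1663 ± 140, limma adjusted p = 8.48e-05), and Itgam did not pass (adjusted p = 0.949). Lyz2 was at 0 in every IL-2 library and at 5.5 to 14.5 in controls, and Adgre1 at 0 to 2.3 and 2.7 to 7.8. Csf1r and Itgax overlapped between the groups. Markers of CD8 T and NK cells (5 genes) summed to 59 to 125 and 125 to 239, those of red cells (7 genes, 2 at 0 throughout) to at most 43 and 85, and those of plasma cells (4 genes, 2 at 0 throughout) to at most 12 and 11. Eomes and Klrb1c, of the CD8 T and NK markers, were lower with IL-2 (limma adjusted p = 0.00417 and 0.00919), while Cd8a and Cd8b1 did not pass (0.432 and 0.983). The part of cycling and of other cell types in the differences below was not tested. In sorted bulk RNA, more cells that express a gene and more RNA of it per cell cannot be told apart.

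With IL-2, 11 of the 36 genes rose, 1 fell, 22 did not pass the test and 2 had too few reads to be tested. Those that rose were the recombination genes Brca1, Brca2, Bard1, Rad54l and Rad54b, the end-processing and helicase genes Rbbp8, Exo1, Blm and Brip1, the Fanconi gene Fancd2 and the checkpoint adaptor gene Topbp1. The gene that fell was Rad51d, a recombination mediator. No gene of the Fanconi core complex passed, nor did the kinase genes Atm, Atr, Chek1 and Chek2. The test was limma on log2(normalised reads + 5) over the 10822 genes with a mean of at least 10 normalised reads, at a Benjamini-Hochberg adjusted p of 0.05. Among all genes tested, 10.8% were called higher and 9.14% lower, against 32.4% of the 34 members tested that were called higher. The members were chosen with earlier results of these data known, so comparisons with all genes describe the list and do not test it. The median log2 difference of those 34 members was 0.63, beside -0.01 over all genes tested, and 28 of the 34 (82.4%) had a positive difference, beside 48.6% of all genes. Without library 44, 8 members rose and 1 fell (of all genes 9.74% and 8.24%). Without IL-2 library 41, 6 rose and 1 fell, beside 974 and 856 of all 10822 genes. The 4 IL-2 libraries lay wholly above the 4 controls for 11 tested members (32.4%) and wholly below for 1, beside 12.9% and 10.9% of all genes. Rad51ap1 is in the first count without passing the test, and Rad54l passed without being in it.

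The members called higher were mostly of middling read number. Of 13 members with a mean of 10 to 50 reads 1 was called higher, of 15 with 50 to 200 reads 8, and of 6 with more than that 2. In the same 3 ranges, 5.71%, 8.11% and 14.6% of all genes were called higher.

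**Figure D1:**
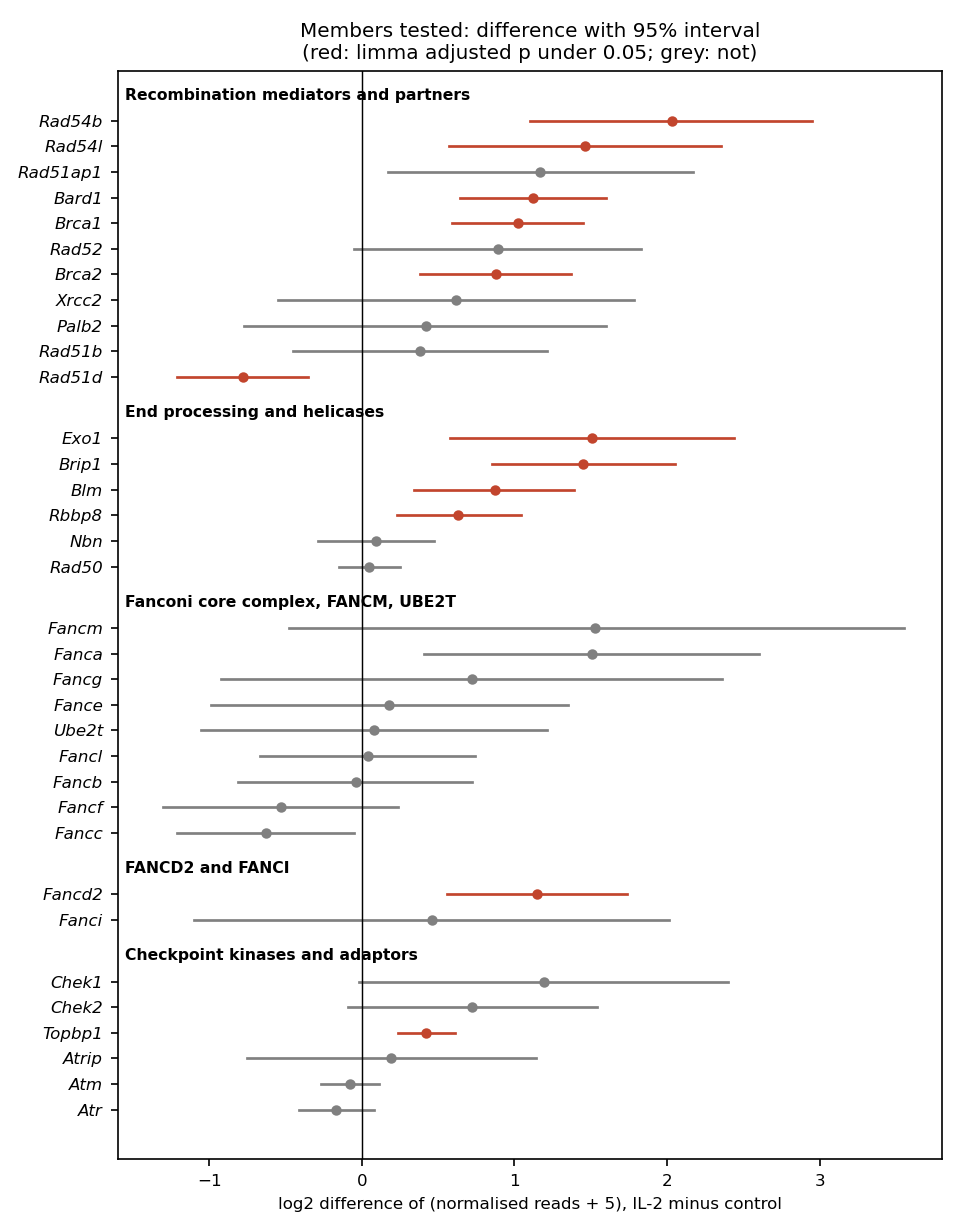
Log2 difference of normalised reads plus 5, IL-2 minus control, for the 34 tested members, ordered within each role, with lines for the 95% interval of the limma fit before adjustment. Red marks an adjusted p under 0.05: 11 genes lie to the right of 0 and Rad51d to the left, while Rad50, Atm and Atr have narrow intervals that hold 0.

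For 5 of the members that rose, the DNA before the transcription start is shown, from RefSeq on build GRCm38.p6. That build differs from GRCm39, which the submitters name, so its coordinates serve only to place the sequences. The letters run 5′ to 3′ on the strand of the gene and end at the base before the start. Capitals mark matches to 3 motifs on either strand: the E2F type (TTNNCGC with C or G at each N), the CHR type (TTTGAA or TTCGAA) and CCAAT, each associated with genes of the cell cycle.
Bard1, chr1:71102973-71103222, minus strand: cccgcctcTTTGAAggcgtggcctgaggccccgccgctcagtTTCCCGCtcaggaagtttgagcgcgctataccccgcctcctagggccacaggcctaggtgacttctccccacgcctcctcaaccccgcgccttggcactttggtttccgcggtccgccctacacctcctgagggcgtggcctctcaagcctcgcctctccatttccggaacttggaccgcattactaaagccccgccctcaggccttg
Blm, chr7:80534999-80535248, minus strand: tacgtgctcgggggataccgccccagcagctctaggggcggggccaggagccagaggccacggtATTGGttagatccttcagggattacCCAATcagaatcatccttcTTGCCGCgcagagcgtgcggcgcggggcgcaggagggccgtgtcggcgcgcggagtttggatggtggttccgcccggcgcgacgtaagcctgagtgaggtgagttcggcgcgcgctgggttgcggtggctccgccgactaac
Brca2, chr5:150522371-150522620, plus strand: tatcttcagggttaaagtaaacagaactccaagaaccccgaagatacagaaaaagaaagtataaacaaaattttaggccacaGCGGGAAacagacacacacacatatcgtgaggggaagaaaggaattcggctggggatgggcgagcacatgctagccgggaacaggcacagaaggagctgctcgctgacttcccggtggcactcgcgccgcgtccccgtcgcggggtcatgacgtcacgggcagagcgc
Topbp1, chr9:103305077-103305326, plus strand: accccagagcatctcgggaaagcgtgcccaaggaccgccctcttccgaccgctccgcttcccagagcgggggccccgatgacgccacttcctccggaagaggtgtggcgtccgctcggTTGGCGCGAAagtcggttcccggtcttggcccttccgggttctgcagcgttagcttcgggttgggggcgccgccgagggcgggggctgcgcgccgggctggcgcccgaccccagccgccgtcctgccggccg
Rad54l, chr4:116123690-116123939, minus strand: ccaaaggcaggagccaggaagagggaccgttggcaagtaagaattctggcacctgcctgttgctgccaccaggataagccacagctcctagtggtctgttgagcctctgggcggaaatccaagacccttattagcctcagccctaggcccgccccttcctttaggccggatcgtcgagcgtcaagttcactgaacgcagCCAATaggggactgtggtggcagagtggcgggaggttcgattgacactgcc

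In Bard1 an E2F-type match began 208 bases before the start and a TTTGAA 242 bases before it. Blm had its E2F-type match at 142 bases, beside CCAAT matches at 186 and 161. Brca2 held an E2F-type match on the other strand at 168 bases, and Topbp1 a pair that share letters at 132 and 129. Rad54l had a CCAAT but none of the E2F-type letters. Of the 36 members, 28 had a promoter in the RefSeq table, which covers 300 bases across each start. An E2F-type match was found in 18 of these 28 (64.3%), in 6 of the 7 that rose and in 12 of the other 21 (57.1%). Rad54b, Rbbp8, Exo1 and Fancd2 rose but had no promoter there. Brca1 and Brip1, among the 7, are not shown above, and the Brca1 match lay after the start. The same letters were in 20.1% of the promoters of all tested genes, in 24.4% of those of tested genes called higher and in 10.9% of all 27025 genes of the table. CCAAT was in 64.3% of members and 43.6% of tested genes, and the CHR type in 10.7% and 17.0%. TTGGCGC can share letters with CCAAT read on the other strand, which happened in 2 member windows, and TTCGAA reads the same on both strands. A match is a description of letters and not of a factor bound there.

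BRCA1 and BARD1 form a ubiquitin ligase that opens the way to recombination, and both genes rose. Brca1 had 400, 218, 306 and 344 normalised reads in IL-2 libraries 41 to 44 and 143, 128, 147 and 188 in control libraries 45 to 48; all values below keep this order of libraries. Every IL-2 library lay above every control, with means of 317 ± 76.5 and 151 ± 25.6 (SD, n = 4 each), 2.09-fold higher (log2 difference 1.02 ± 0.20 SE, limma adjusted p = 0.00343). Bard1 had 179, 178, 145 and 245 reads with IL-2 and 67.2, 105, 71.0 and 88.3 in controls. Its groups did not overlap either, and its mean was 2.25-fold higher (1.12 ± 0.22, limma adjusted p = 0.00374). Brca1 passed in all 21 alternative fits and Bard1 in all 20 that tested it.

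BRCA2 acts on the processed end, and PALB2 joins BRCA2 to BRCA1. Brca2 rose 1.88-fold, from 119, 120, 77.9 and 133 reads in controls to 274, 197, 149 and 227 with IL-2 (0.88 ± 0.23, limma adjusted p = 0.0174). All of its IL-2 libraries were above all controls, but its call was lost when library 41 was left out (adjusted p = 0.0566). Palb2 had 14.2, 39.5, 54.5 and 39.9 reads with IL-2 and 63.6, 39.4, 10.3 and 10.4 in controls. These overlap widely, and the 95% interval of its log2 difference ran from -0.77 to 1.60 (adjusted p = 0.652).

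RAD54L and RAD54B are motor proteins that act in recombination on chromatin, and their genes had the largest folds among the members of this role that rose. Rad54b went from 10.8, 13.4, 8.60 and 42.7 reads in controls to 110, 71.3, 51.0 and 99.2 with IL-2, 4.41-fold higher (2.03 ± 0.43, limma adjusted p = 0.00543). Control library 48 was the highest control and still under every IL-2 library. Rad54l had 82.1, 51.3, 42.7 and 124 reads with IL-2 and 17.8, 19.4, 14.1 and 44.9 in controls, 3.12-fold higher (1.46 ± 0.41, limma adjusted p = 0.0246). Here control library 48 reached above IL-2 library 43. The call for Rad54l was lost without library 41, 44, 45, 46 or 47, with adjusted p from 0.056 to 0.0749, and without a filter on low reads (0.0519).

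RAD51B, RAD51C, RAD51D and XRCC2 form a complex of recombination mediators, and XRCC3 pairs with RAD51C. Of these 5 genes, none was called higher in limma, and 2 were not tested. Rad51d fell 1.71-fold, from 195, 198, 199 and 223 reads in controls to 88.9, 152, 98.4 and 137 with IL-2 (-0.78 ± 0.20, limma adjusted p = 0.0149). Every IL-2 library was below every control, and the call held in all 20 alternative fits that tested the gene. Rad51b stood at 40.9 ± 6.91 and 33.3 ± 17.9 reads and Xrcc2 at 54.1 ± 40.3 and 35.4 ± 31.7 (IL-2 first, adjusted p = 0.545 and 0.474). Their intervals, -0.45 to 1.21 and -0.55 to 1.78 on the log2 scale, hold 0 and also the 1.02 by which Brca1 rose. Xrcc2 was spread by single libraries, with 114 reads in IL-2 library 42 and 82.2 in control library 48 against 12.5 to 40.2 elsewhere. Rad51c had 0, 22.7, 9.3 and 13.1 reads with IL-2 and 1.5, 4.4, 15.2 and 7.2 in controls. Xrcc3 was listed at 0 in all 4 controls and in IL-2 libraries 41 and 43, with 17.5 and 8.1 reads in libraries 42 and 44. These last 2 genes were under the filter, and their two-sided exact permutation p-values over 70 splits were 0.486 and 0.429, where 0.0286 is the smallest possible.

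RAD51AP1 aids strand exchange, and RAD52 anneals single strands. Rad51ap1 had 28.5, 45.6, 25.1 and 36.7 reads with IL-2 and 19.7, 12.5, 2.2 and 21.8 in controls. Its groups did not overlap and its mean was 2.42-fold higher, but it did not pass (1.17 ± 0.46, limma adjusted p = 0.0969). Rad52 had 140, 114, 87.7 and 111 reads with IL-2 and split controls, 120 and 107 in libraries 45 and 46 and 28.2 and 28.8 in libraries 47 and 48 (adjusted p = 0.176).

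**Figure D2:**
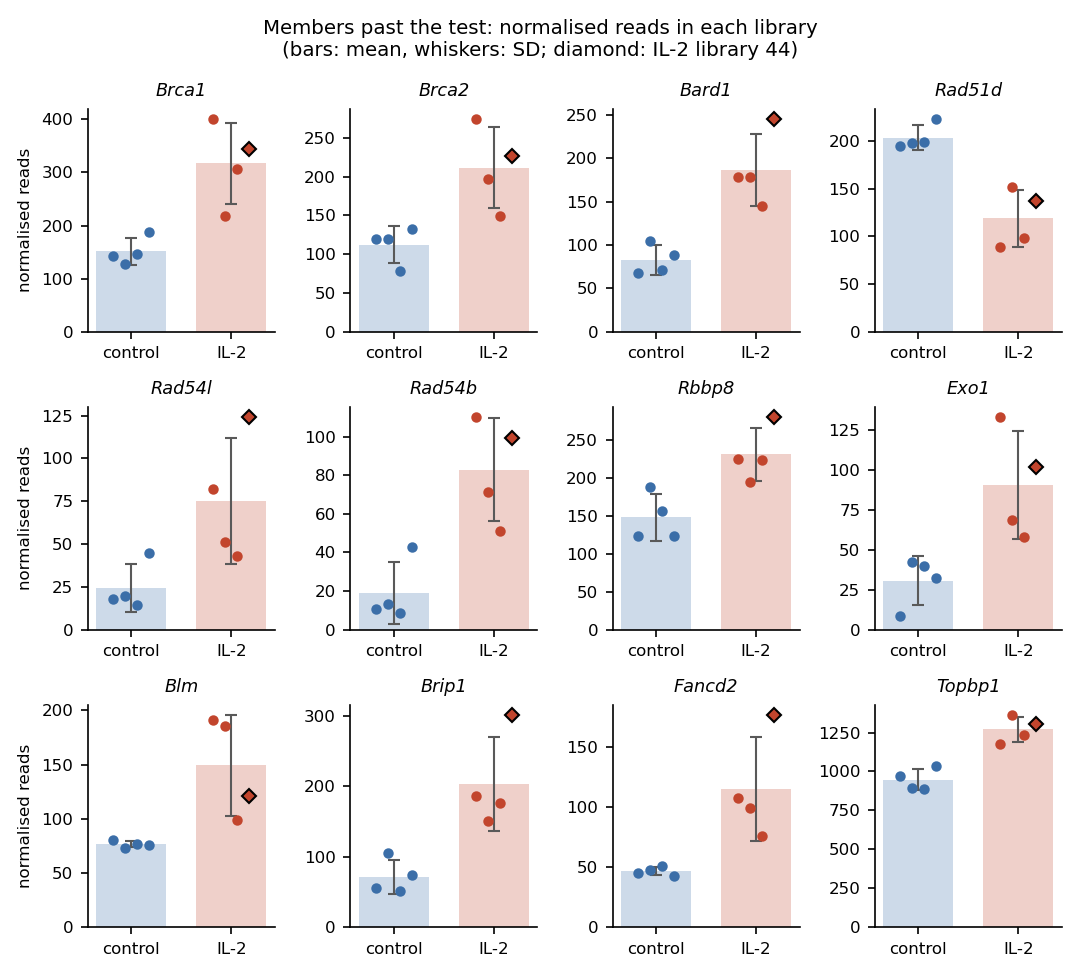
Normalised reads in each library (vertical axis, from 0) for the 12 members past the test, controls in blue and IL-2 in red, with bars for means and whiskers for SD. The groups do not overlap in 11 of the 12, Rad54l being the exception, and library 44 (diamond) is the highest IL-2 library for Bard1, Rad54l, Rbbp8, Brip1 and Fancd2.

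Among the genes that prepare DNA ends or unwind intermediates, those of the nuclease partners and helicases rose and those of the break-sensing complex did not pass. Rbbp8 encodes CtIP, which starts resection. It had 225, 195, 224 and 280 reads with IL-2 and 124, 188, 156 and 124 in controls, 1.56-fold higher (0.63 ± 0.19, limma adjusted p = 0.0303). Its groups did not overlap, though only narrowly, and the call was lost without library 41, 43, 44, 45, 47 or 48 (adjusted p from 0.0501 to 0.0847). Exo1, the exonuclease of long resection, had 133, 68.9, 58.0 and 102 reads with IL-2 and 8.2, 42.1, 39.7 and 32.4 in controls, 2.95-fold higher (1.51 ± 0.43, limma adjusted p = 0.026). Its groups did not overlap, and the call was lost without library 41 (adjusted p = 0.0801) or 44 (0.0632), without a filter (0.0549) and in limma without trend (0.0547).

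BLM is the helicase that dissolves joined molecules, and BRIP1 (FANCJ) is a helicase that binds BRCA1. Blm had 191, 186, 98.9 and 121 reads with IL-2 against a tight 80.1, 73.5, 77.2 and 76.1 in controls, 1.95-fold higher (0.87 ± 0.24, limma adjusted p = 0.0233). No IL-2 library reached down to the controls, yet the call was lost without library 41, 42 or 46 (adjusted p from 0.0516 to 0.0731). Brip1 went from 55.4, 105, 51.2 and 74.9 reads to 187, 151, 176 and 301, 2.84-fold higher (1.45 ± 0.27, limma adjusted p = 0.00291). It had the smallest adjusted p of the members, passed in all 20 alternative fits that tested it and was highest in library 44.

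RAD50 and NBN belong to the complex that binds broken ends first. Rad50 had 1012, 853, 843 and 965 reads with IL-2 and 913, 944, 822 and 867 in controls. The groups lie on top of one another at a depth where the interval is narrow, -0.15 to 0.25 on the log2 scale (adjusted p = 0.772). Nbn stood at 230 ± 39.8 and 214 ± 33.3 (interval -0.29 to 0.47, adjusted p = 0.762), with 171 reads in library 44 under the 245 to 257 of the other IL-2 libraries.

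FANCD2 and FANCI form the clamp that the Fanconi core complex marks with ubiquitin. Fancd2 had 107, 99.1, 75.6 and 176 reads with IL-2 and 45.1, 47.3, 50.7 and 43.0 in controls, 2.46-fold higher (1.15 ± 0.27, limma adjusted p = 0.0107). Every IL-2 library lay above every control, and the gene passed in all 20 alternative fits that tested it. Fanci controls were as tight, at 51.3, 50.2, 45.4 and 47.6 reads, but its IL-2 libraries held 147, 74.2, 6.0 and 215. Library 43 alone lay below the controls, and the gene did not pass (0.46 ± 0.71, limma adjusted p = 0.713). It passed without library 43 (log2 difference 1.37, adjusted p = 0.017), and its difference was -0.07 without library 44.

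Of the 9 genes of the Fanconi core group, 0 passed in limma, 0 had groups that did not overlap, and the median log2 difference was 0.08. Of all genes 10.8% were called higher and 9.14% lower, so a count of 0 among 9 is not read as a difference from them. The smallest limma adjusted p of the group were those of Fanca and Fancc (0.0536 and 0.124). With IL-2 the mean was higher for Fanca and lower for Fancc. FANCA is a core subunit, and its gene had 58.0, 32.0, 66.1 and 126 reads with IL-2 and 34.7, 22.1, 28.2 and 4.3 in controls. Only IL-2 library 42 lay within the controls' range, the mean was 3.16-fold higher, and the adjusted p was 0.0536 (1.51 ± 0.50, limma). It passed in 6 of 19 alternative fits, with adjusted p between 0.0347 and 0.145 over them. Without library 42 the adjusted p was 0.0347, and without control library 45 it was 0.045.

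Fancc, another core subunit gene, had 67.7, 39.1, 38.8 and 54.7 reads with IL-2 and 90.0, 63.0, 85.6 and 76.5 in controls (-0.63 ± 0.27, limma adjusted p = 0.124). Library 41 was the only IL-2 library above the lowest control. Fancf, which holds the complex together, stood at 21.0 ± 4.44 and 33.6 ± 12.4 (adjusted p = 0.339). Fancl, the ubiquitin ligase gene, and Ube2t, that of its conjugating enzyme, stood at 76.1 ± 33.1 and 69.1 ± 10.3 and at 12.9 ± 6.90 and 12.9 ± 9.05 (adjusted p = 0.956 and 0.941). Fancb stood at 23.4 ± 4.26 and 24.9 ± 9.01 and Fance at 29.3 ± 11.0 and 31.6 ± 25.9 (adjusted p = 0.955 and 0.862). At these read numbers the 95% intervals reach a 1.5-fold change or more in at least one direction.

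In the other core group genes, a control library was listed at 0. Fancm encodes the motor protein that brings the core complex to DNA. It had 161, 204, 181 and 231 reads with IL-2 and 207, 210, 0 and 90.6 in controls, a spread that put its interval at -0.48 to 3.55 (adjusted p = 0.284). Fancg was listed at 0 in control library 45, with 82.6, 42.9 and 52.4 in the other controls and 20.9, 82.7, 54.4 and 60.0 with IL-2 (adjusted p = 0.565). Its log2 difference was 0.72 with all libraries and -0.19 without library 45. Whether these values of 0 are failed estimates was not tested.

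**Figure D3:**
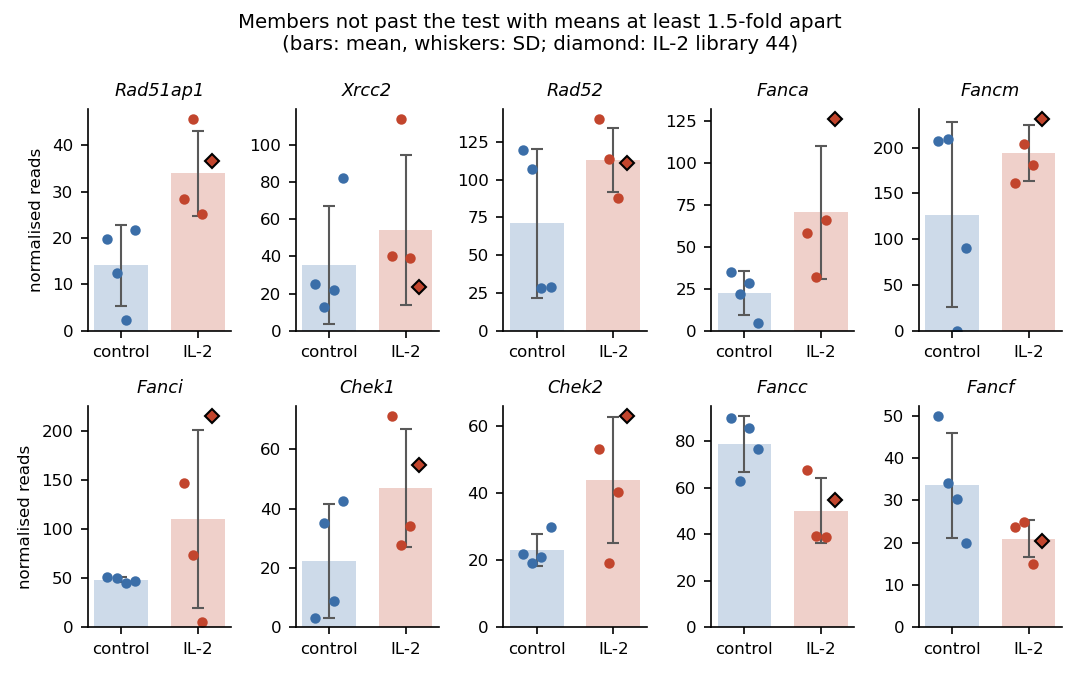
Normalised reads in each library (vertical axis, from 0) for the 10 members that did not pass although their group means lay at least 1.5-fold apart, 8 higher and 2 lower with IL-2. Whiskers are wide where libraries of a group disagree: a control has 0 reads of Fancm, IL-2 libraries run from 6.0 to 215 for Fanci, and the controls of Rad52 lie near 28 or above 100.

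Among the checkpoint genes 1 of 6 passed, 16.7% called higher beside 10.8% of all genes. TOPBP1 switches on ATR at stalled forks, and Topbp1 had 1179, 1361, 1233 and 1307 reads with IL-2 and 973, 895, 888 and 1033 in controls. The groups did not overlap, replicates were close, and the fold was 1.34 (0.42 ± 0.08, limma adjusted p = 0.00414). It passed in all 21 alternative fits.

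The kinase genes Atm and Atr have many reads and showed no difference that passed. Atm had 1537, 1699, 1585 and 1717 reads with IL-2 and 1729, 1899, 1833 and 1484 in controls (interval -0.27 to 0.11, adjusted p = 0.571). Atr had 497, 450, 419 and 441 against 589, 494, 498 and 456 (interval -0.41 to 0.08, adjusted p = 0.336). Both intervals lie within 0.41 of 0, short of the 1.02 by which Brca1 rose. Atrip, the partner gene of Atr, stood at 63.3 ± 15.9 and 62.2 ± 32.9 (adjusted p = 0.805).

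Chek1 and Chek2 encode the effector kinases downstream of ATR and ATM, and both had few reads. Chek1 had 71.2, 27.9, 34.3 and 54.6 reads with IL-2 and 3.2, 35.1, 8.9 and 42.6 in controls, 2.10-fold higher in the mean with overlapping groups (1.19 ± 0.56, limma adjusted p = 0.161). Chek2 had 53.3, 19.3, 40.5 and 63.0 against 21.8, 19.3, 20.9 and 30.0, and only IL-2 library 42 fell within the controls (0.72 ± 0.37, adjusted p = 0.209). Neither passed in any of its 19 alternative fits.

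**Figure D4:**
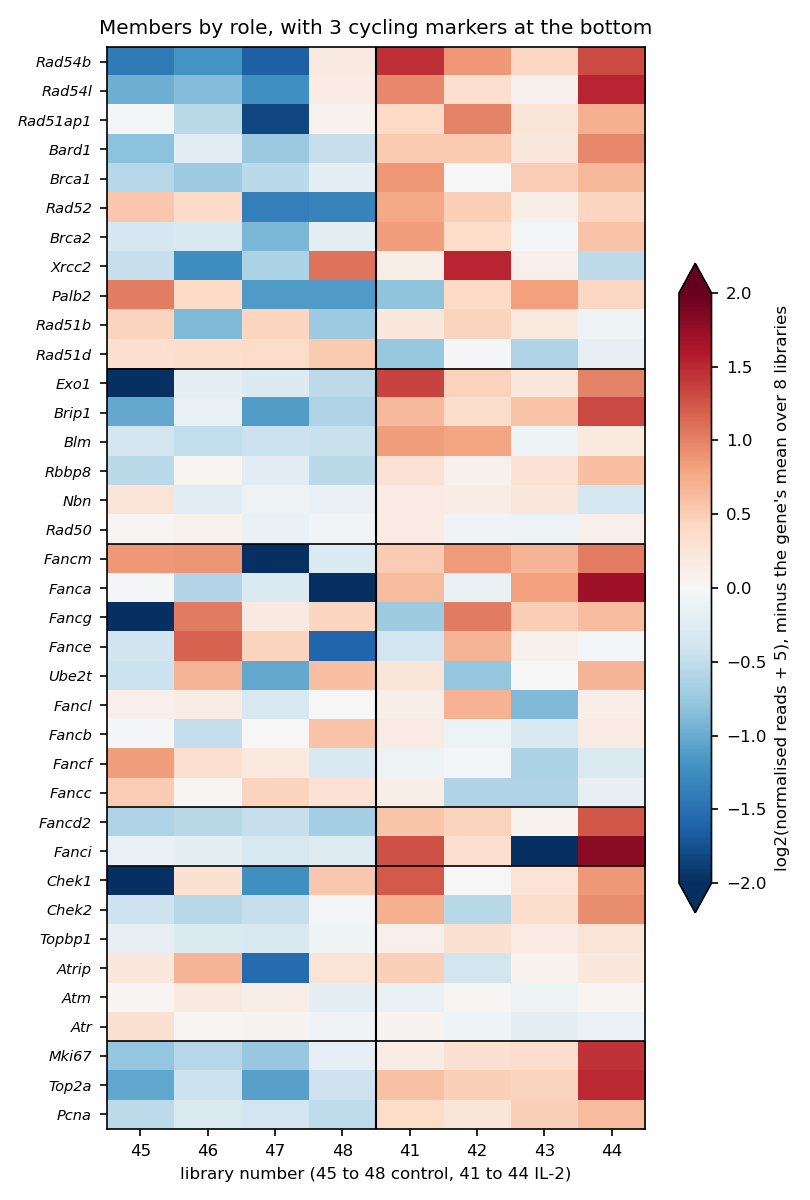
Each cell gives log2(normalised reads + 5) of a gene in a library minus that gene's mean over the 8 libraries, members grouped by role above 3 cycling markers, controls on the left and IL-2 on the right. Red is above the mean and blue below: Brca1, Bard1, Rad54b, Brip1 and Fancd2 are higher in every IL-2 library than in any control, as are Mki67 and Top2a, while Rad50, Atm and Atr are pale throughout.

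Of the cycling markers, 12 of 14 (85.7%) were called higher, beside 10.8% of all genes. Without library 44 there were 10, beside 9.74% of all genes. The calls for Cdk1, Ccne2 and Mcm4 held in 11 of 20, 14 of 19 and 15 of 21 alternative fits. Mki67 was 2.32-fold higher, Top2a, the topoisomerase gene of dividing cells, 2.89-fold, and Pcna, the replication clamp gene, 1.82-fold (limma adjusted p = 0.00516, 7.16e-04 and 1.54e-04). Library 44, where Mki67 and Top2a were 2.20 and 2.02 times the median of the other IL-2 libraries, was the highest IL-2 library for 5 of the 11 members that rose, beside 32.7% of all genes that rose. Over the 34 tested members it was highest for 12 (35.3%), beside 27.3% of all genes. The same ratio was 2.90 for Fanci, 2.43 for Rad54l, 1.78 for Fancd2 and 1.71 for Brip1, but 0.653 for Blm, 1.06 for Topbp1 and 1.12 for Brca1. Markers of the cycling list differed in this ratio as well, from 0.754 for Mcm2 to 4.33 for Ccnb1. Without library 44, Rad54l, Rbbp8 and Exo1 no longer passed (adjusted p = 0.0749, 0.0847 and 0.0632). Library 41 had the fewest Mki67 reads of the IL-2 libraries (5332). Among the members that rose, it was the highest IL-2 library for Brca1, Brca2, Rad54b, Exo1 and Blm. The share of all genes highest in library 41 was not counted. Without library 41, Brca2, Rad54l, Rbbp8, Exo1 and Blm no longer passed.

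Other genes of the same pathways came from lists that the member list leaves out, and their shares of calls are set beside the 10.8% higher and 9.14% lower of all genes. Of 35 further recombination genes tested, 4 rose (11.4%, near that of all genes) and 1 fell, with a median of 0.17. Dna2, a resection nuclease, was listed at 0 in 3 controls and at 22.3 reads in library 48, against 57.9 to 101 with IL-2 (adjusted p = 0.00109). Rmi2, a partner of BLM, and Fignl1, a recombination regulator, were 2.72-fold and 2.38-fold higher (adjusted p = 0.00108 and 0.00377). Hrob, which brings a helicase to recombination sites, rose as well (limma adjusted p = 0.0183, and 0.0583 without library 42). It had 29.5, 58.9, 13.9 and 30.5 reads with IL-2 and 2.7, 2.8, 4.2 and 12.2 in controls. Dna2 and Hrob had control means of 5.59 and 5.48 reads, so only their IL-2 libraries brought them past the filter of 10. With a filter at a mean of 50 reads, 2 further recombination genes were called higher, beside 1083 of all 8772 genes left. The helicase gene Helq fell from 158 ± 24.6 to 89.1 ± 15.7 (adjusted p = 0.0169, and 0.0558 without library 47).

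Of 22 further checkpoint genes, 3 rose (13.6%). Clspn, the adaptor through which ATR reaches CHK1, had 652, 639, 497 and 819 reads with IL-2 and 252, 256, 261 and 273 in controls, 2.51-fold higher (1.29 ± 0.14, limma adjusted p = 7.73e-05). Tipin, of the fork protection complex, and Wee1, the kinase that restrains CDK1, were 1.83-fold and 2.85-fold higher (adjusted p = 0.0137 and 0.00533). Of 17 further Fanconi genes tested 1 passed, Bod1l, a fork protection gene, which fell by 0.21 on the log2 scale (adjusted p = 0.0351, lost in 8 of 21 alternative fits, among them those without library 41, 42, 43, 45 or 46, at 0.0634 to 0.0951).

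End joining is the other main way to mend breaks, and p53 targets are switched on by damage signals. Of 10 end-joining genes 1 rose, a share near the 10.8% of all genes. It was Xrcc6, which encodes the end-binding protein Ku70 (1.46-fold, limma adjusted p = 0.0205), and the median was -0.12. That call was lost without library 42, 47 or 48 (adjusted p = 0.0532 to 0.0587). Of 14 p53 targets tested, 1 rose (7.14%) and 2 fell, with a median of -0.16. The kinase gene Plk2 rose from 27.1 ± 17.3 to 130 ± 55.4 (adjusted p = 0.00543). Pmaip1, which encodes the death-promoting protein NOXA, fell from 190 ± 18.9 to 91.6 ± 20.2, and Trp53inp1 from 2290 ± 253 to 1559 ± 193 (adjusted p = 0.00369 and 0.00305).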

How the data were processed

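Total RNA of flow-sorted spleen Tregs went into stranded low-input libraries, per the labels' protocols. The deposited table holds variance-stabilised log2 values, 1 column per library, matched by library number. The submitters' processing notes name Salmon, DESeq2 and GRCm39, and their settings, the annotation and filters are not stated there. Normalised reads were recovered by inverting the variance-stabilising formula, whose scale the lowest value (8.69) sets. In each library the commonest value above the lowest was taken as 1 read. The 5 commonest values per library, that one included, 40 in all, were whole reads within 0.005. Only 7.62% of tested values under 100 reads were whole (within 0.02), so no count test was run.

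At 10 reads, counting error is a coefficient of variation of 31.6%. The fit was limma 3.58.1 in R 4.3.3 (eBayes with trend, no covariates). It ran on log2(normalised reads + 5) of genes with a mean of at least 10 over the 8 libraries. A trial on simulated whole reads gave every gene the same spread beyond counting. It therefore cannot speak for genes whose libraries spread more widely. Folds are ratios of mean normalised reads. Alternatives were the deposited scale, pseudocounts of 1 and 20, 4 other filters, quantile normalization, median centring, limma without trend, robust or with array weights, a Ddx3y covariate, and leaving out each library. The covariate split the libraries at 10 reads of Ddx3y, a Y chromosome gene, and libraries fell on both sides. All members are named. From each other list the text names up to 4 called genes per direction by smallest p. From those lists, 2 genes are not reported here and were left out of the counts and sums. Members and lists were chosen with earlier results of these data known. Figures used matplotlib 3.10.9.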

Additional observations from a re-analysis of the deposited data

Results flagged for a closer look

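In 2 of 71 groups of 4 libraries, 1 library lay far from the other 3 on the log2 scale, where chance alone gives about 1 in 20 groups. Control library 48 had 223 normalised reads of Rad51d, above the 195 to 199 of the other controls and so farther from the IL-2 group. IL-2 library 44 had 171 reads of Nbn, below the 245 to 257 of the other IL-2 libraries, and without it the log2 difference of Nbn was 0.23 (limma adjusted p = 0.382).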

How the results depend on the processing

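Over 21 alternative fits, 630 of 673 pairs of a member and a fit kept direction and side of the threshold, 20 lost the call, 7 gained it and 16 changed sign, none of the last with a call in either fit. Brca1, Bard1, Rad54b, Brip1, Fancd2, Topbp1 and Rad51d passed in every fit that tested them. On the deposited scale with genes at least 1 above the lowest value in 4 libraries, 6 members were tested, 2 were called higher and 0 lower, since that filter leaves fewer genes. Of the 5261 genes it left, 883 were called higher and 767 lower. Leaving out single libraries gave 6 to 11 members higher and 1 lower, beside 974 to 1054 and 765 to 892 of all genes. Among members that did not pass, the log2 difference ran over those fits from 0 to 0.09 for Rad50, -0.2 to 0.14 for Fancb, -0.32 to 0.6 for Fance, -0.19 to 1.19 for Fancg, -0.19 to 0.34 for Fancl, -0.25 to 0.35 for Ube2t, -0.07 to 1.37 for Fanci and -0.29 to 0.45 for Atrip. Fancl was at -0.09 with the Ddx3y covariate and -0.01 after quantile normalization. The cause of these sign changes was not tested. No paired analysis was possible because the groups share no replicate numbers. Depth limits the 13 tested members under 50 reads most.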
